A study of Hydra oligactis with 61 samples.

Results

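Head-regenerating tips of the freshwater polyp *Hydra oligactis* were compared at 12 hours post amputation (hpa) with tips collected at 0 hpa. The comparison holds 3 libraries at 12 hpa and 4 at 0 hpa, 7 of the 61 RNA-seq libraries analysed, and they were chosen by their group label and batch alone. All 7 came from DMSO-treated animals of the strain Innsbruck 12, kept at 18 °C and fed 3 times a week, and belong to the batch labelled 1. Per the paper, animals were starved before the cut, and DMSO lasted 30 s at 0 hpa but 3 h in regenerating samples. Time after the cut and length of DMSO treatment therefore cannot be told apart. Animals were cut midway along the body column, and a head-regenerating tip is the wounded upper end of the lower piece, so the tissue at 0 hpa is body column next to the cut. Each library pooled 30 such tips, and the study took animals from large cultures and divided them at random among replicates, so the p-values measure the spread between pools of animals. As these are bulk samples, fewer cells of a type and less RNA per cell cannot be told apart.

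The study asked why *H. oligactis* is poor at regrowing a foot, and followed both wounds of bisected animals over time. The foot-regenerating tips (3 batch 1 libraries at 12 hpa, 4 at 0 hpa), the head-regenerating tips at 3 hpa (3 libraries) and the heads and feet of intact animals (5 libraries each) are used below only to place the head-regenerating values. Beside the 4 batch 1 libraries, 3 further 0 hpa libraries of head-regenerating tips belong to batch 2 and were left out of the comparison.

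In *Hydra*, the tip of the head works as an organizer. Canonical Wnt signaling runs it: secreted Wnt ligands bind Frizzled and LRP receptors, β-catenin then acts with the transcription factor TCF, and targets such as *sp5* and *axin* feed back to limit the signal. A cut first calls up a general injury response, with bZIP transcription factors, matrix remodelling and proteases, and the choice between head and foot is made on top of it.

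The 7 libraries held between 14682081 and 18399186 RSEM-estimated counts, within the range of 14550984 to 26108358 over all 61. Values below are CPM, that is counts scaled to a library of 1000000 by the TMM method of edgeR, and a transcript is called higher or lower at an adjusted p below 0.01 by edgeR's quasi-likelihood test with Benjamini-Hochberg adjustment over 17676 tested transcripts. Gene names followed by "match" are the best protein match in the study's annotation, not a proven identity, and ordinals only number matches of one name. CPM is not corrected for transcript length, so levels are compared between samples and not between genes. The labelled tissue at 0 hpa is body column, for which no marker list was used. Against the ends of the body, the head gene *brachyury1* stood at 4.05 to 6.95 CPM at 0 hpa and at 138 to 172 CPM in intact heads, and 6 foot peroxidase matches summed to 277 to 346 CPM at 0 hpa and to 4442 to 5086 CPM in intact feet.

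By 12 hpa, 1704 transcripts were called, 9.64% of those tested, with 913 higher (5.17%) and 791 lower (4.47%). Most changes were small, with a median absolute change of 0.48 on the log2 scale among the called, and 195 transcripts (1.10%) rose and 107 (0.605%) fell by more than 2-fold. Those described below include type IV collagens, the bZIP gene *fos*, proteases and protease inhibitors, and the Wnt ligand *wnt9/10c*. The median change over all tested transcripts was 0.00. With single libraries left out, 1174 to 1555 transcripts were called, and the 791 lower fell to 508 without library 1 and to 512 without library 4 at 12 hpa. The 2 groups did not overlap for 24.2% of tested transcripts, and 520 of the called transcripts carried a protein name.

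**Figure D1:**
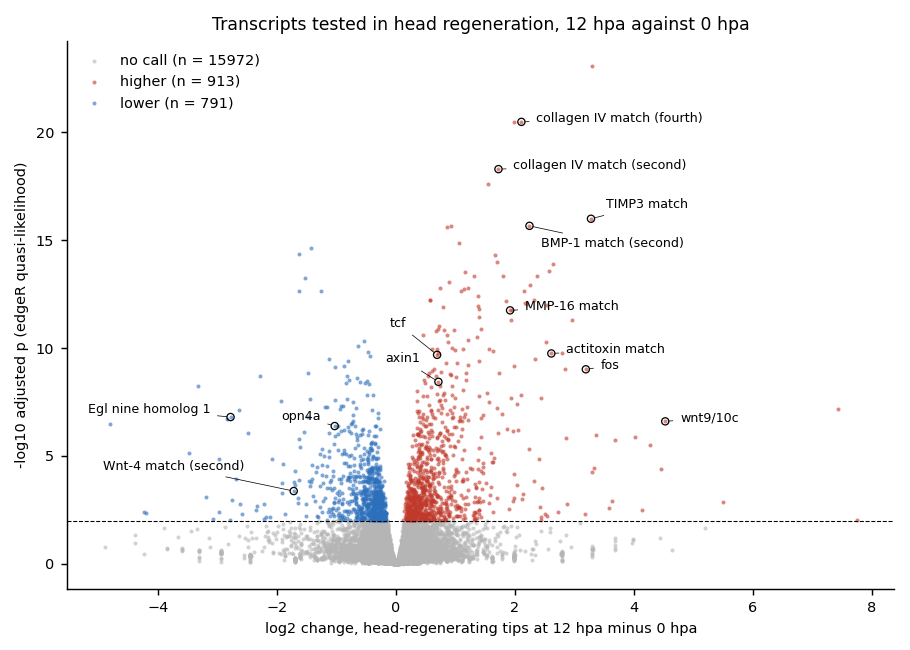
Each point is 1 of the 17676 tested transcripts, with its log2 change from 0 to 12 hpa on the x axis and the −log10 adjusted p on the y axis. The dashed line marks an adjusted p of 0.01, and red (913) and blue (791) points are called higher and lower. Circled points are genes described in the text, and the type IV collagen and TIMP3 matches stand far above most transcripts.

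Among 9 Wnt ligands, 1 was higher and 1 lower (11.1% each, against 5.17% and 4.47% of all tested). *wnt9/10c* (R035762c0g1_i01), a ligand found in intact heads (24.9 CPM), stood at 0, 0.167, 0.116 and 0.0594 CPM in the 4 libraries at 0 hpa, which are counts of 0, 3, 2 and 1. At 12 hpa it stood at 2.32, 2.74 and 1.42 CPM, or 44, 46 and 22 counts. The groups were far apart, and the log2 change was 4.53 ± 0.62 (SE, adjusted p = 2.5e-07), with the call kept when any 1 of the 7 libraries was left out. It was at 0.215 to 0.907 CPM by 3 hpa and rose further from 3 to 12 hpa (log2 1.80, adjusted p = 0.0054), while at the foot-regenerating wound it held 0.188 to 0.781 CPM at 3 hpa and 0.0389 to 0.0815 CPM at 12 hpa. The difference between the wounds in the change from 0 to 12 hpa was not called (adjusted p = 0.57).

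*wnt3* (R033453c0g1_i01), the ligand most closely tied to the head organizer in *Hydra*, was barely detected, with counts of 0, 0, 1 and 0 at 0 hpa and 2, 2 and 4 at 12 hpa. All 12 hpa libraries were above all 0 hpa libraries, but the change was not called (adjusted p = 0.16), and the mean at 48 hpa was 11.3 CPM. The second Wnt-4 match fell from 1.122, 1.39, 1.98 and 1.96 CPM to 0.528, 0.595 and 0.323 CPM (log2 −1.72 ± 0.36, adjusted p = 0.00043). *wnt7*, at 31.8 CPM by 48 hpa, stood at 0 to 1.00 CPM at 0 hpa and at 0.129 to 0.264 CPM at 12 hpa, and was not called (adjusted p = 0.16). The Wnt-5a match had 5.49 to 7.502 CPM and then 8.01 to 9.30 CPM, again without a call (log2 0.39, adjusted p = 0.069). The median change over the 9 ligands was −0.11.

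Of 8 transcripts for Wnt receptors and Wnt secretion, 1 was called (12.5% against 9.64% of all tested). It was *lgr5* (R026305c0g1_i01), in vertebrates a receptor for R-spondin that strengthens Wnt signaling. It stood at 0.935, 0.946, 0.407 and 1.01 CPM at 0 hpa and at 2.48, 2.32 and 1.42 CPM at 12 hpa, without overlap. Its log2 change was 1.34 ± 0.35 (adjusted p = 0.0042), but the call was lost without library 1 or 2 at 12 hpa or library 3 at 0 hpa, with an adjusted p of up to 0.038. *wntless*, which carries Wnt proteins to the cell surface, ranged from 22.5 to 26.9 CPM and then from 29.4 to 31.6 CPM, short of a call (adjusted p = 0.071). The Frizzled-1, -4 and -5 matches changed by 0.05 to 0.13 on the log2 scale, and the Frizzled-8 match by 0.32 (adjusted p = 0.048).

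Of 9 transcripts for Wnt inhibitors and parts of the pathway inside the cell, 2 rose (22.2% against 5.17% of all tested), *axin1* and *tcf*. *axin1* (R031348c0g1_i01), scaffold of the complex that destroys β-catenin and in many animals a Wnt target, went from 24.99, 27.1, 27.0 and 23.9 CPM to 47.1, 42.9 and 36.6 CPM. *tcf* (R035844c0g2_i01), which brings β-catenin to its target genes, went from 57.9, 67.9, 62.1 and 65.5 CPM to 104, 109 and 93.8 CPM. Neither gene's groups overlapped. The log2 changes were 0.71 ± 0.08 (adjusted p = 3.7e-09) and 0.69 ± 0.07 (adjusted p = 2.1e-10), and both were kept in all 7 leave-one-out fits. Both also rose between 3 and 12 hpa, by 0.43 and 0.50 on the log2 scale (adjusted p = 0.00052 and 7.1e-06). The extracellular inhibitors (sFRP, FRZB, Dkk3 and WIF1 matches) stayed below 1 CPM in every one of the 7 libraries, and *tle3*, a co-repressor of TCF, changed by 0.16 (adjusted p = 0.033).

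Among 6 further head and foot genes that the study names, *sp5* (R029443c0g1_i01), a zinc finger gene that acts as a Wnt target and Wnt inhibitor in *Hydra*, held 63.1, 63.9, 61.1 and 63.5 CPM at 0 hpa. At 12 hpa it held 102, 103 and 70.4 CPM, so that library 4 was closest to the controls. The log2 change was 0.55 ± 0.13 (adjusted p = 0.0018), with no call without library 1 (0.025) or library 2 (0.028) at 12 hpa. The opsin gene *opn4a* (R028454c0g1_i03) went the other way, from 11.03, 12.2, 10.8 and 11.2 CPM to 3.91, 5.23 and 7.69 CPM (log2 −1.03 ± 0.15, adjusted p = 4.2e-07). *brachyury1*, a T-box gene of the head, stayed at 5.17 to 6.42 CPM against 4.05 to 6.95 CPM (log2 0.01, adjusted p = 0.98), although it reached 82.4 CPM at 48 hpa. The genes *npyr4*, *tld* and *kiaa1958*, all high in intact feet, had changes between −0.48 and −0.35 and were not called.

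**Figure D2:**
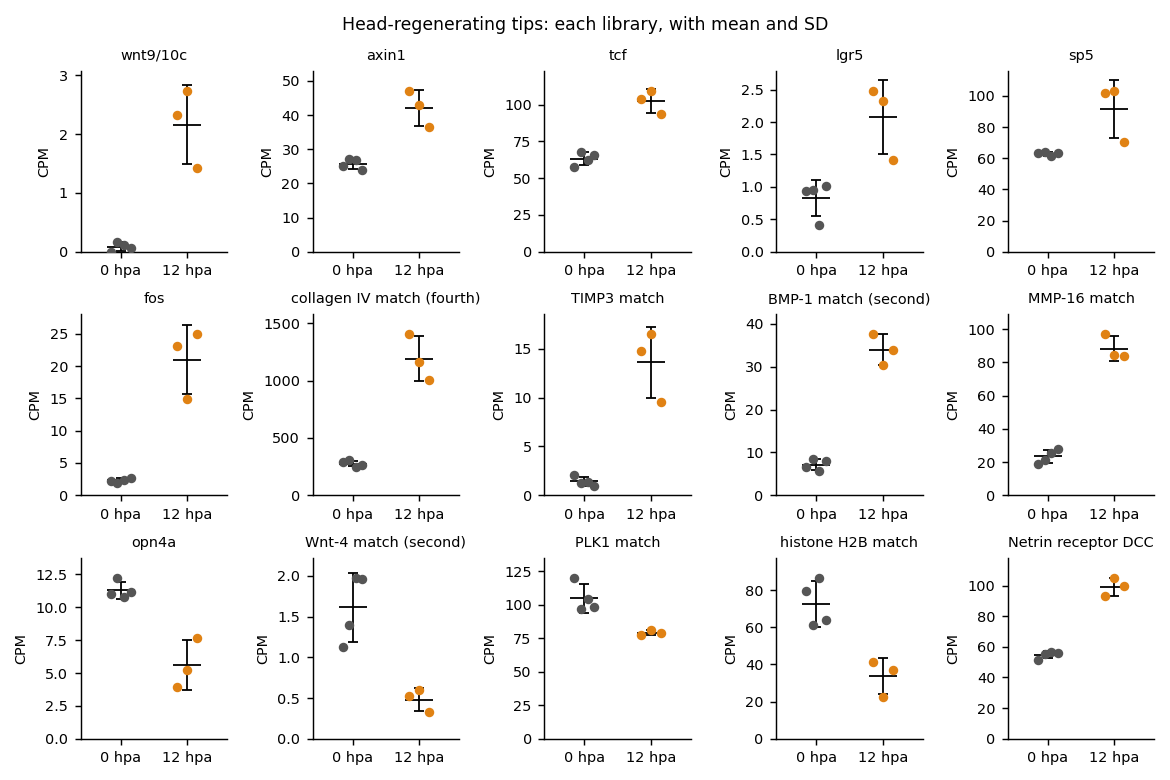
CPM of 15 transcripts in each library of head-regenerating tips at 0 hpa (4 grey points) and 12 hpa (3 orange points), with the group mean and SD as a bar with whiskers. The groups are separate in every panel, including *sp5*, where the lowest 12 hpa library (70.4 CPM) lies just above the 0 hpa libraries, and each y axis starts at 0.

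The injury-linked transcription factors were led by *fos* (R029832c0g1_i01), a bZIP partner of Jun in the AP-1 complex. It stood at 2.24, 1.95, 2.33 and 2.67 CPM at 0 hpa and at 23.2, 14.9 and 24.9 CPM at 12 hpa. That is a log2 change of 3.19 ± 0.36 (adjusted p = 9.7e-10), yet the 12 hpa level was already well below that at 3 hpa, where the libraries held 93.8 to 176 CPM (log2 −2.76 from 3 to 12 hpa, adjusted p = 2.1e-10). An AP-1 match followed the same course at a smaller size, with 54.4 to 60.96 CPM at 0 hpa, 141 to 165 CPM at 3 hpa and 65.2 to 74.5 CPM at 12 hpa (log2 0.31 from 0 to 12 hpa, adjusted p = 0.00099, and 0.014 without library 2 at 12 hpa). *jun* itself was not called (log2 −0.02, adjusted p = 0.89), nor was *creb* called (11.02 to 13.7 and then 12.7 to 15.3 CPM, adjusted p = 0.12), while its mean at 3 hpa was 32.3 CPM.

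Over the 16 factors of that list, 3 were higher (18.75% against 5.17% of all tested) and 1 was lower (6.25% against 4.47%). The median change was 0.10. The third riser was a KLF8 match, a Krüppel-like zinc finger factor (75.7 to 97.9 CPM, then 108 to 120 CPM, log2 0.37, adjusted p = 1.4e-05). The faller was a match to the ETS-type repressor pokkuri, which dropped from 0.814 to 1.34 CPM at 0 hpa to 0.129 to 0.264 CPM (log2 −2.34 ± 0.57, adjusted p = 0.0022). That call rests on few counts, and leaving out a single library raised its adjusted p to as much as 0.017, without library 4 at 12 hpa. Its mean in intact heads was 36.2 CPM.

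**Figure D3:**
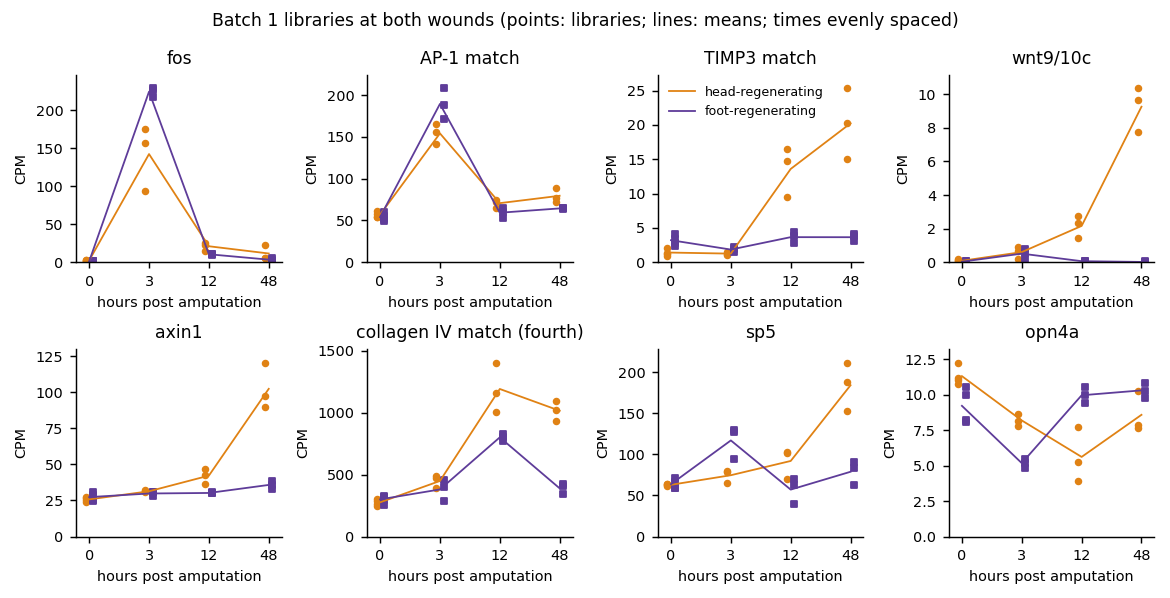
CPM in the batch 1 libraries at 0, 3, 12 and 48 hpa for head-regenerating (orange circles) and foot-regenerating (purple squares) tips, with lines through the means and time points drawn at even spacing. *fos* and the AP-1 match peak at 3 hpa at the head-regenerating wound, while *wnt9/10c*, *axin1* and the TIMP3 match are higher there at 12 and 48 hpa than at the foot-regenerating wound. The AP-1 match is high at 3 hpa at the foot-regenerating wound too (172 to 208 CPM, against 48.9 to 60.4 CPM at 0 hpa and 53.4 to 64.8 CPM at 12 hpa).

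Of 37 axial transcription factors, genes that pattern the body in animals, 6 were higher (16.2% against 5.17% of all tested) and 1 was lower (2.70% against 4.47%), with a median of 0.06. A match to the homeobox gene *vent1* rose from 0.748, 0.779, 1.28 and 0.832 CPM to 2.01, 3.93 and 2.71 CPM (log2 1.65 ± 0.28, adjusted p = 1.2e-05). *dlx1*, *rfx1* and the FOXN2 match rose by 0.39, 0.36 and 0.32 on the log2 scale, and these 4 calls were kept without any 1 library. The OTX1 match, a head-patterning homeobox gene in many animals, rose from 0 to 0.0623 CPM to 0.0646 to 0.595 CPM (log2 3.59 ± 0.88, adjusted p = 0.0025), a call kept in 3 of 7 leave-one-out fits (adjusted p up to 0.025, without library 1 at 12 hpa). The HoxA9 match (log2 0.49, adjusted p = 0.0062) and the falling HHEX match (log2 −0.47, adjusted p = 0.0024) were likewise lost in some fits, at 0.12 and 0.067 without library 4 at 12 hpa. The ZIC4 match, a zinc finger gene of tentacle identity in *Hydra*, went from 0.249 to 1.11 CPM to 1.29 to 2.80 CPM without passing the test (log2 1.50, adjusted p = 0.015), against 81.6 CPM at 48 hpa.

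Of 14 transcripts in the TGF-β and BMP pathway, 2 were higher (14.3% against 5.17% of all tested) and none was lower. The median was 0.07, and 1 change was large. The second BMP-1 match (R038495c0g2_i08), an astacin protease of the tolloid family that in other animals processes procollagen and frees BMPs from chordin, stood at 6.48, 8.52, 5.70 and 7.90 CPM at 0 hpa and at 37.6, 30.4 and 33.9 CPM at 12 hpa. The log2 change was 2.24 ± 0.15 (adjusted p = 2.2e-16), and the level at 3 hpa was already 30.1 to 58.0 CPM. The ligands of the list (BMP-7, Nodal, DVR-1 and 2 GDF8 matches) and the Noggin and Chordin antagonists gave no call, and a second Gremlin match (log2 0.62, adjusted p = 0.0080) kept its call in only 1 of 7 leave-one-out fits, with 0.071 without library 2 at 12 hpa.

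Of 25 FGF, VEGF, hedgehog and Notch transcripts, 5 rose, 2 fell and the median was −0.03. Of all tested transcripts, 5.17% were higher and 4.47% lower. FGF ligands act through receptor tyrosine kinases, and in this list 3 receptor matches rose together with 1 ligand match. The FGF receptor match R033445c0g1_i01 went from 23.0, 27.8, 25.3 and 26.6 CPM to 40.4, 34.6 and 51.4 CPM (log2 0.71 ± 0.11, adjusted p = 5.1e-06). The receptor matches R028638c0g1_i01 and R037379c0g1_i03 rose by 1.46 and 0.31, the FGF match R031431c0g1_i01 by 0.44 and the second hedgehog match by 0.54 on the log2 scale, with adjusted p values between 5.3e-05 and 0.00028. The fallers were the second VEGF-C match (130 to 165 CPM, then 88.6 to 131 CPM, log2 −0.41, adjusted p = 0.00066, and 0.038 without library 4 at 12 hpa) and FGF match R027901c0g2_i01. The latter is a transcript of intact feet (72.5 CPM) with only 4, 8, 12 and 9 counts at 0 hpa and 0, 1 and 0 at 12 hpa (adjusted p = 0.0040, and up to 0.033 with 1 library left out, library 1 at 12 hpa).

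The extracellular matrix of *Hydra*, the mesoglea, is a sheet between the epithelial layers, with type IV collagen and laminin at its faces and fibrillar collagen in its core. Of this list of 19, 15.8% was higher at 12 hpa, against 5.17% of all tested, and none was lower. The called members were 2 type IV collagen matches and the TIMP3 match. The fourth collagen IV match (R039304c0g1_i01) stood at 287, 306, 248 and 264 CPM at 0 hpa and at 1404, 1163 and 1008 CPM at 12 hpa. The second stood at 460, 450.3, 384 and 351 CPM and then at 1574, 1361 and 1138 CPM. Both groups were far apart, with log2 changes of 2.11 ± 0.11 (adjusted p = 3.2e-21) and 1.72 ± 0.10 (adjusted p = 5.0e-19). At 3 hpa their ranges were 393 to 485 CPM and 619 to 727 CPM, so most of the rise fell between 3 and 12 hpa (log2 1.41 and 1.02, adjusted p = 4.8e-13 and 8.5e-10). The 5 fibrillar collagen matches changed by 0.05 to 0.13 and the first collagen IV match by 0.10, none of them called.

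The TIMP3 match (R026013c0g1_i01), a secreted inhibitor of metalloproteinases, had 2.06, 1.22, 1.40 and 0.951 CPM at 0 hpa and 14.7, 16.5 and 9.56 CPM at 12 hpa. Its log2 change was 3.28 ± 0.22 (adjusted p = 1.0e-16). At 3 hpa its libraries still held 1.02 to 1.47 CPM, and its rise from 3 to 12 hpa was 3.42 on the log2 scale (adjusted p = 1.3e-15).

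Metalloproteinases, the enzymes that such inhibitors hold in check, gave 6 higher and 2 lower of 31, with a median of 0.06. These are 19.4% and 6.45% of the list, against 5.17% and 4.47% of all tested. The MMP-16 match (R038159c1g2_i01) rose from 18.6, 21.5, 25.7 and 27.6 CPM to 96.9, 84.3 and 83.7 CPM (log2 1.92 ± 0.17, adjusted p = 1.8e-12). The third MMP-24 match rose from 27.0, 46.9, 45.5 and 45.7 CPM to 127, 108 and 135 CPM (log2 1.57 ± 0.16, adjusted p = 1.1e-10). Their courses differed, since the MMP-24 match had come down from 163 to 272 CPM at 3 hpa (log2 −0.92, adjusted p = 9.5e-05), whereas the MMP-16 match was at 44.1 to 69.4 CPM at 3 hpa and its later change was not called (adjusted p = 0.033). Smaller rises were called for the fourth nas-13 match (0.58), the fifth ADAMTS match (0.52) and the first MMP-14 match (0.29, lost without library 1 at 12 hpa, adjusted p = 0.028), and the second MMP-25 match was called on 9, 7 and 3 counts against 0, 0, 1 and 0 (adjusted p = 0.0031, up to 0.021 with 1 library left out, library 1 at 12 hpa). The second nas-4 match and the second low choriolytic enzyme match, both astacins, fell by 0.43 and 0.56.

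Cell cycle genes moved the other way. Of 20 transcripts for replication, mitosis and histones, 9 were lower (45.0% against 4.47% of all tested) and none was higher. The median was −0.23, and all 20 log2 changes were below 0. At an unadjusted p below 0.05, 14 were lower and 0 higher, and DESeq2 called 8 lower and 0 higher. The summed level of the list went from 1189 to 1405 CPM at 0 hpa to 998.5 to 1070 CPM at 12 hpa. A match to PLK1 (R038084c0g2_i01), the mitotic polo-like kinase, stood at 120, 96.5, 104 and 98.2 CPM and then at 77.2, 81.0 and 79.0 CPM (log2 −0.41 ± 0.07, adjusted p = 4.0e-05). The second cyclin B1 match (−0.37), the centromere histone CENPA match (−0.45), the thymidine kinase TK1 match (−0.45) and the histone chaperone NASP match (−0.40) fell likewise and kept their call without any 1 library. The histone H2B match had the largest fall of the list (log2 −1.10 ± 0.30, adjusted p = 0.0059) with a wide spread, 61.1 to 86.7 CPM and then 22.7 to 41.5 CPM, and 5 to 9 members were called lower when a library was left out, down to 5 without library 2 at 12 hpa. The MCM2 and MCM5 matches, helicase parts that load at replication origins, had changes of −0.19 and −0.16 (adjusted p = 0.042 and 0.022). Summed levels at 3 hpa were 943 to 998.9 CPM, so the drop was present by then.

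Of 4 stem and germ line markers, 2 were lower, where 4.47% of all tested were. The list summed to 1944 to 2195 CPM at 0 hpa and 1722 to 1822 CPM at 12 hpa. The Piwi-like 1 match (R039787c1g1_i01), a germ line and stem cell protein of *Hydra*, fell from 899.5, 838, 844 and 792 CPM to 670.4, 642 and 666 CPM (log2 −0.36 ± 0.05, adjusted p = 4.3e-07). The second match to DDX4, the helicase vasa, fell from 452, 447, 441 and 423 CPM to 339, 331 and 337 CPM (log2 −0.39 ± 0.05, adjusted p = 1.5e-08). The other 2 members, a Piwi-like 2 match (log2 −0.13, adjusted p = 0.050) and the first DDX4 match, were not called. The part of these markers in the lower levels of the cell cycle list was not tested.

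Of 10 nerve cell markers only the LWamide neuropeptide precursor match was called, where 9.64% of all tested were. It stood at 28.3, 33.9, 28.1 and 31.6 CPM and then 42.3, 43.6 and 42.4 CPM (log2 0.49 ± 0.10, adjusted p = 0.00025). The summed level of the list went from 52.6 to 61.8 CPM to 69.3 to 72.5 CPM. The 11 gland cell markers summed to 1439 to 1640 CPM and then 1389 to 1571 CPM, with 1 higher and 1 lower. These are 9.09% each, against 5.17% and 4.47% of all tested. Both were chitinase matches whose calls were kept in 1 of 7 leave-one-out fits. Among 4 nematocyte toxins 1 was higher, where 5.17% of all tested were. The actitoxin match rose from 4.11, 2.84, 1.98 and 2.73 CPM to 20.7, 19.0 and 13.5 CPM (log2 2.61 ± 0.27, adjusted p = 1.8e-10), and the other 3 were not called. The nematocyte list summed to 45.0 to 50.9 CPM and then 55.7 to 67.5 CPM. None of 6 foot peroxidase matches was called by edgeR, DESeq2 or limma, and 0 had an unadjusted p below 0.05 in edgeR.

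Housekeeping groups showed small shifts in both directions. Of 23 ribosome and translation genes, 2 were higher (RPL4 0.20 and DDX21 0.24) and 3 lower (EIF5 −0.29, WDR12 −0.36 and glycine tRNA ligase −0.20). These are 8.70% and 13.04% of the list, against 5.17% and 4.47% of all tested. Of 19 chaperone and apoptosis genes, 1 was higher (5.26% against 5.17% of all tested) and 3 were lower (15.8% against 4.47%). SOD1, which removes superoxide, rose from 29.6, 26.2, 25.8 and 28.5 CPM to 50.9, 49.0 and 40.4 CPM (log2 0.77 ± 0.11, adjusted p = 2.8e-07). The 3 that fell were cell death genes, the third caspase-3 match (−0.45), caspase-8 (−0.22) and BAK (−0.29), of which 1 was called without library 4 at 12 hpa. In the ribosome list, single libraries left 1 to 2 members higher and 1 to 3 lower, with 1 lower without library 2 at 12 hpa or library 1 at 0 hpa.

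**Figure D4:**
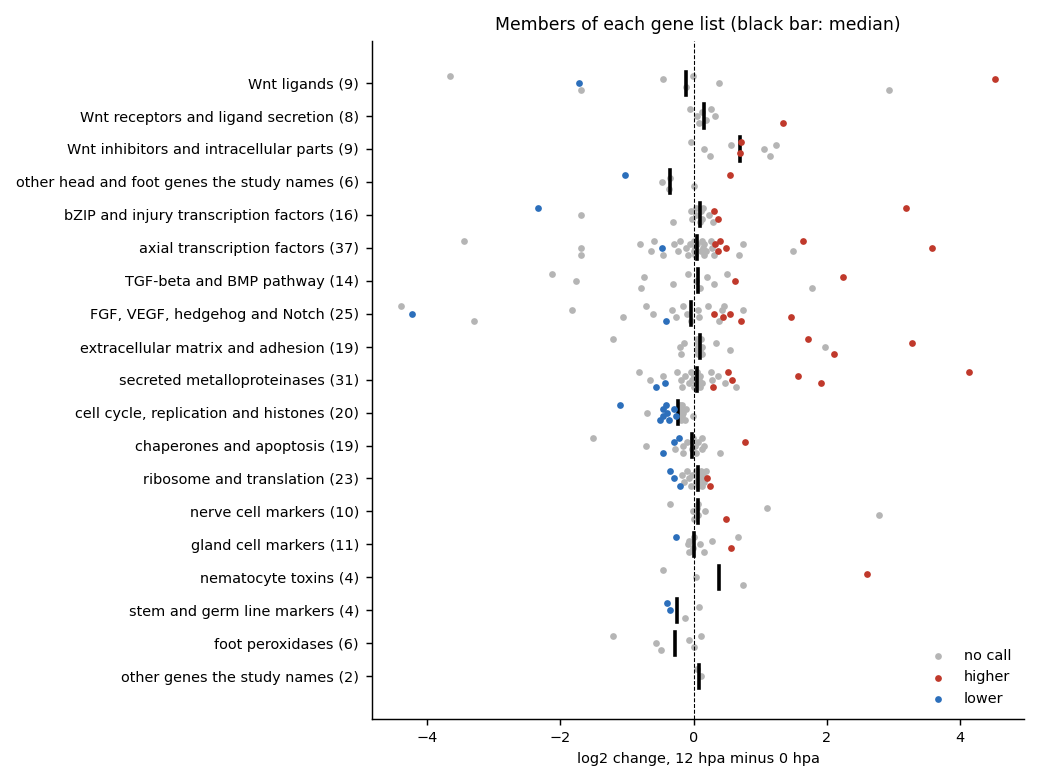
Log2 change from 0 to 12 hpa of every member of the 19 gene lists, with 1 row for each list and its number of members in parentheses. Red and blue points are called higher and lower, grey points are not called, and the black bar is the list's median. The cell cycle row has 9 blue points and no red one, and the matrix row has 3 red points at 1.72, 2.11 and 3.28.

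Among the 12 named transcripts that rose most, by size of change among those above 1 CPM on average, a match to a somatomedin-B and thrombospondin domain protein went from 7.60, 9.24, 6.57 and 8.85 CPM to 88.0, 76.1 and 73.3 CPM (log2 3.29 ± 0.15, adjusted p = 8.0e-24). Papilin, a matrix proteoglycan with protease-inhibitor domains, went from 5.79 to 7.61 CPM to 25.5 to 38.9 CPM (log2 2.37 ± 0.19, adjusted p = 4.8e-14). Neuroblastoma suppressor of tumorigenicity 1, in vertebrates a secreted BMP antagonist, went from 0.561 to 1.90 CPM to 8.92 to 12.6 CPM (log2 2.84 ± 0.32), and its mean in intact feet was 305 CPM. A Golgi-associated plant pathogenesis-related protein (4.02), a universal stress protein (3.34), a pair of TMEM175-type potassium channels (2.53 and 2.52), a 26S proteasome non-ATPase subunit 10 match (2.45) and a dopamine receptor 4 match (2.32) complete the 12 with TIMP3, *fos* and actitoxin. The dopamine receptor match had been at 32.8 CPM at 3 hpa and was down to 1.90 to 2.85 CPM.

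Among the 12 named transcripts that fell most, the match to EGLN1 (R012051c0g1_i01), the oxygen-sensing prolyl hydroxylase that marks HIF for destruction in other animals, went from 6.11, 4.45, 6.63 and 3.62 CPM to 0.317, 0.178 and 1.87 CPM (log2 −2.78 ± 0.38, adjusted p = 1.6e-07). Galactose-3-O-sulfotransferase 3, which sulfates glycans, went from 23.7, 25.2, 25.8 and 24.6 CPM to 8.82, 8.80 and 6.20 CPM (log2 −1.64 ± 0.12, adjusted p = 4.2e-15). Opsin-3 fell by 1.63, epithelial membrane protein 1 by 1.47 and steroid 17-alpha-hydroxylase by 1.53 on the log2 scale. The fall of 1-phosphatidylinositol phosphodiesterase (log2 −2.76, adjusted p = 0.0011), a transcript at 375 CPM in intact feet, was not called without library 4 at 12 hpa (0.013) or library 2 at 0 hpa (0.014).

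Between 3 and 12 hpa, a comparison that shares its 12 hpa libraries with the main one, 1009 transcripts (5.71%) were called, 395 higher (2.23%) and 614 lower (3.47%). The named transcripts with the smallest p included TIMP3 and the fourth collagen IV match, which rose, and the AP-1 match, a lipid storage droplets surface-binding protein match and the dopamine receptor 4 match, which fell. The lipid droplet protein, of a family that coats fat stores in insects, stood at 150, 146, 154 and 146 CPM at 0 hpa and at 120, 120 and 124 CPM at 12 hpa. Its 3 hpa level, 243 to 279 CPM, lay above both groups, so its log2 change was −1.11 ± 0.08 from 3 to 12 hpa (adjusted p = 1.3e-15) and −0.30 from 0 to 12 hpa (adjusted p = 0.0025, and 0.019 without library 1 at 12 hpa). The count of 1009 went to between 629 and 793 when a library was left out, with 629 without library 4 at 3 hpa, 653 without library 1 and 665 without library 4 at 12 hpa.

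To see how far the tips had moved toward a head, 2 lists were drawn from libraries outside the comparison. The head list holds 1172 transcripts more than 4-fold higher in intact heads than in feet and than in foot-regenerating tips at 0 hpa, and the foot list holds 489 chosen likewise for feet. Of the head list, 126 were higher and 10 lower at 12 hpa, so that 11.6% were called against 9.64% of all tested transcripts, and the median change was 0.23 against 0.00. By direction, 10.8% of the list was higher against 5.17% of all tested, and 0.853% was lower against 4.47%. Of the list, 739 members (63.1%) had a change above 0 and 366 below 0, against 50.2% of all tested above 0. The filter ran over all 61 libraries, so list members could pass it through counts in intact heads or feet alone. The medians and shares of both lists can therefore include members at or near 0 counts in the 7 libraries.

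The head list summed to 7074, 7544, 7259 and 7308 CPM at 0 hpa and to 8910, 9217 and 9365 CPM at 12 hpa. The groups did not overlap, yet this was far from the 140757 to 153922 CPM of intact heads, and the sum was already 8737 to 8982 CPM at 3 hpa. At the foot-regenerating wound the list went from 8251 to 9134 CPM at 0 hpa, libraries that helped to choose it, to 8971 to 9719 CPM at 12 hpa. The foot list gave 32 higher and 20 lower with a median of 0.00. That is 6.54% and 4.09% of the list, near the 5.17% and 4.47% of all tested. Of its members, 237 had a change above 0 and 211 below 0. Its sum was 3089 to 3791 CPM at 0 hpa and 3213 to 3583 CPM at 12 hpa. Leaving out single libraries gave 97 to 114 higher and 2 to 14 lower in the head list, and 17 to 27 higher and 8 to 22 lower in the foot list. In the head list the 10 lower fell to 3 and 2 without library 1 and library 2 at 12 hpa, and to 6 and 4 without library 2 and library 4 at 0 hpa. In the foot list the 32 higher fell to 17 without library 2 at 12 hpa and to 21 without library 3 at 0 hpa, and the 20 lower to 8 without library 1 at 12 hpa, to 11 without library 4 at 0 hpa and to 13 without library 2 or 4 at 12 hpa or library 2 or 3 at 0 hpa.

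**Figure D5:**
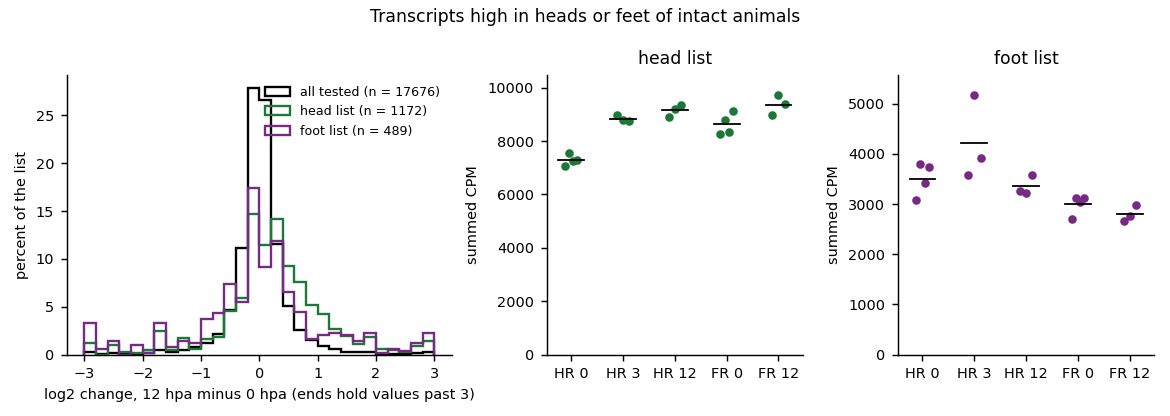
Left, the distribution of log2 changes from 0 to 12 hpa for all tested transcripts, the head list and the foot list, as percent of each list. Middle and right, the summed CPM of each list in every batch 1 library of the head-regenerating (HR) and the foot-regenerating (FR) wound at the hpa given, with bars at the means. The head list rose from 7074 to 7544 CPM to 8910 to 9365 CPM at the head-regenerating wound, and the foot list did not separate the 2 times.

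The foot-regenerating tips shared no library with the comparison and gave 1402 called transcripts from 0 to 12 hpa (7.93%, with 893 higher, 5.05%, and 509 lower, 2.88%). Of the 913 that rose at the head-regenerating wound, 460 rose there too (50.4% of one list and 51.5% of the other), and of the 791 that fell, 258 fell there too (32.6% and 50.7%). None was called in opposite directions. The test of the difference between the 2 changes called 15 transcripts (0.0849% of those tested), 12 where the log2 change at the head-regenerating wound minus that at the other was above 0 (0.0679%) and 3 where it was below 0 (0.017%), and 2035 had an unadjusted p below 0.05. This count depended on single libraries, with 96 without library 4 of the foot-regenerating tips at 0 hpa and 6 to 18 when any other of the 14 libraries was left out, down to 6 without library 1 and 7 without library 4 of the foot-regenerating tips at 12 hpa, and 9 without library 3 of the head-regenerating tips at 0 hpa.

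Of these 15, 6 had a name. The TIMP3 match differed most, since at the foot-regenerating wound it held 2.43 to 4.18 CPM at 0 hpa and 2.74 to 4.43 CPM at 12 hpa (difference of the log2 changes 3.06 ± 0.32, adjusted p = 9.6e-09). The netrin receptor DCC match (R036588c1g1_i01), a guidance receptor that is high in intact heads (809 CPM), rose from 51.5, 55.4, 56.5 and 56.2 CPM to 93.1, 105 and 99.6 CPM at the head-regenerating wound, a log2 change of 0.85 against 0.25 at the other (difference 0.60 ± 0.08, adjusted p = 2.5e-05). These 2 differences were called whichever of the 14 libraries was left out. For *opn4a* the difference was −1.15 (adjusted p = 0.0015). At the foot-regenerating wound it held 8.10 to 10.5 CPM at 0 hpa, 4.81 to 5.50 CPM at 3 hpa and 9.39 to 10.5 CPM at 12 hpa. The call was lost only without library 1 of the head-regenerating tips at 12 hpa (0.018).

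The TRAF4 match, an adaptor of TNF-type receptors, rose from 5.92, 6.62, 5.70 and 6.42 CPM to 11.9, 10.9 and 11.2 CPM (difference 0.99, adjusted p = 0.0054). The plant cadmium resistance 5 match differed by 0.65 and the match to the ETS factor ERG by −0.66 (adjusted p = 0.0056 for both). ERG had 71.0, 91.1, 78.0 and 94.3 CPM at 0 hpa and 51.7, 54.5 and 38.4 CPM at 12 hpa, with a mean of 117 CPM at 3 hpa. At the foot-regenerating wound it held 43.6 to 48.9 CPM at 0 hpa, 83.5 to 96.7 CPM at 3 hpa and 41.4 to 44.5 CPM at 12 hpa. Its levels at the wounds thus overlapped at 12 hpa but not at 0 hpa. These 3 differences were called in 4, 6 and 6 of 14 leave-one-out fits, with an adjusted p of up to 0.022, 0.033 and 0.057, reached without library 2 of the foot-regenerating tips at 12 hpa, library 2 and library 4 of the head-regenerating tips at 12 hpa.

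The Wnt pathway genes that rose fell short of this test. The difference was 0.57 for *axin1* (adjusted p = 0.013), whose libraries held 24.98 to 30.6 CPM at 0 hpa and 30.0 to 30.6 CPM at 12 hpa at the foot-regenerating wound. It was 0.48 for *tcf* (adjusted p = 0.017), 0.70 for *sp5* (adjusted p = 0.080) and 3.70 for *wnt9/10c* (adjusted p = 0.57). Without library 4 of the foot-regenerating tips at 0 hpa, *axin1* (0.0042) and the fourth collagen IV match (0.0042, against 0.020 with it) were called. With all libraries kept, that collagen match also rose at the foot-regenerating wound, from 251 to 330 CPM to 769 to 830 CPM (log2 1.42, adjusted p = 1.1e-14). *fos*, the second BMP-1 match, the MMP-16 match and the third MMP-24 match rose at both wounds, and their differences lay between −0.06 and 0.24 with adjusted p values of 0.76 to 0.98.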

How the data were processed

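Poly(A) RNA of tissue next to the wound, or of heads and feet, was sequenced in 61 libraries. Per the submitters' processing notes, reads were trimmed with Trimmomatic 0.39 and quantified with RSEM and Bowtie2, and the study mapped them to a reduced *H. oligactis* transcriptome. The deposited table of RSEM expected counts holds 23396 transcripts by 61 libraries, not normalized, which were rounded before testing because 5.33% of them had a fractional part. FPKM values deposited by the authors, scaled by length and depth, served only as an alternative, and 4 of their per-sample columns could not be matched to a sample and were not used. The count columns at 12 hpa are numbered 1, 2 and 4 and were matched to their group by name. The study itself corrected batches with ComBat_seq and called transcripts with glmTreat of edgeR, and neither step is in the deposited counts.

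All 61 libraries entered 1 fit with 1 term per group, and the 0 hpa groups were split by batch, so the comparison lies within batch 1. Transcripts were filtered with filterByExpr (minimum count 10, minimum total 15), which kept 17676, scaled by TMM and tested with edgeR 4.0.16 in R 4.3.3 (quasi-likelihood test, common biological coefficient of variation 0.0887, Benjamini-Hochberg adjustment over all tested transcripts, call at an adjusted p below 0.01). Standard errors were derived as the absolute log2 change divided by the square root of the test's F statistic. The 7 libraries held 14682081 to 18399186 counts each. The head and foot lists required an adjusted p below 0.01 and a log2 fold above 2 in both of their comparisons, and no batch term could be given for them because their columns match groups and not single samples.

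Genes named with values were those the study names by a symbol, the 12 largest rises and 12 largest falls among called, named transcripts above a mean log2 CPM of 0 with groups that did not overlap, up to 4 members of each list and up to 6 named transcripts of the other contrasts with the smallest p. The members and lists were chosen with earlier results of these data known. The fit was tested on simulated data. Alternatives were DESeq2 1.42.0 and its size factors, no filter, an adjusted p below 0.05, glmTreat with a fold of 1.2, fewer or more libraries, a replicate block, limma 3.58.1 on log2(FPKM + 0.1) or log2(FPKM + 1) with FPKM of at least 1 in 3 libraries, and single libraries left out. The fit of 6 libraries without the block and limma without a filter were chosen after seeing the data. Figures were drawn with matplotlib 3.10.9.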

Additional observations from a re-analysis of the deposited data

Results flagged for a closer look

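In the 4 libraries of head-regenerating tips at 0 hpa, 1 library stood apart from the other 3 in 14 of 135 results looked at. These results were 113 named transcripts, the summed levels of the lists and the total count, and all 14 were transcripts. The measure was the gap to the nearest library over the whole range, against a limit that chance passes in about 1 in 20 groups. The Wnt genes *wnt3* (1.00, from a single count), *wnt7* (0.830) and *lgr5* (0.875, library 3 low) were among them. So were the transcription factors *fd4* (0.879), *nk2* (0.837) and the *vent1* match (0.842), the Notch ligand gene *dll1* (0.875), the FGF receptor matches R037379c0g1_i03 (0.844) and R028638c0g1_i01 (0.853), the third MMP-24 match (0.930, library 1 low), the WDR12 match (0.885), the CaTX-A toxin match (0.882), the sixth APX1-type peroxidase match (0.867) and steroid 17-alpha-hydroxylase (0.834).

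The change from 0 to 12 hpa differed between the wounds, by the test of the difference itself, for 6 named transcripts. The log2 change at the head-regenerating wound minus that at the foot-regenerating wound was above 0 for the TIMP3 match (3.06), the TRAF4 match (0.99), the plant cadmium resistance 5 match (0.65) and the netrin receptor DCC match (0.60), and below 0 for *opn4a* (−1.15) and the ERG match (−0.66).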

How the results depend on the processing

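No call changed direction in the main comparison under any alternative, and 57 of the 71 named transcripts called kept their call without any 1 library. DESeq2 (1913 called), DESeq2 size factors (1689), no filter (1582), all 7 libraries at 0 hpa with a batch term (2098) and limma on FPKM (1436 and 1448, and 1364 without a filter) stayed within 1.5 times the 1704 calls. At an adjusted p below 0.05 there were 2915 calls (1530 higher, 1385 lower), with glmTreat at a fold of 1.2 465 (302 and 163), and from the 7 libraries alone 938 (543 and 395). Left-out libraries gave 1174 to 1555 calls (666 to 812 higher, 508 to 743 lower). The causes were not tested.

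Whether the replicate numbers pair the libraries could not be decided from so few libraries. The deviations of libraries with the same number correlated at 0.04, −0.02 and 0.07, and those with different numbers at −0.07 to 0.05. Libraries 1 and 4 at 12 hpa correlated best with their own number, and library 2 did not. A replicate block over 6 libraries called 348 (231 higher, 117 lower), and the same 6 without the block 458 (306 and 152), so most of the drop came with the fewer libraries. Of the gene list members, 18 were called with the block, 23 without it on 6 libraries and 21 with glmTreat, against 62, and 46 to 58 when a library was left out.

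For the difference between wounds, an adjusted p below 0.05 gave 51 calls (37 and 14), and left-out libraries 6 to 96 (4 to 81 and 2 to 15). From 3 to 12 hpa the same threshold gave 1810 (763 and 1047), and left-out libraries 629 to 793 (260 to 342 and 369 to 451). Lists drawn at a log2 fold above 1 were longer, with 2123 (head) and 1014 (foot) members against 1172 and 489. They held 253 higher and 34 lower (head) and 93 and 66 (foot). Lists from heads against feet alone had 1477 (head) and 1014 (foot) members. They held 146 higher and 26 lower (head) and 50 and 52 (foot). With libraries left out the ranges were 97 to 114 and 2 to 14 (head), 17 to 27 and 8 to 22 (foot).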

Other observations

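Of the head list members called at 12 hpa, 84 of the risers and 7 of the fallers carried a protein name, and the following were chosen after their values were seen. Tubulin alpha-1C, a building block of microtubules, went from 222, 247, 233 and 234 CPM to 354, 391 and 373 CPM (log2 0.67, adjusted p = 1.7e-11). Prelamin-A/C, a protein of the nuclear lamina, went from 39.9, 41.5, 36.2 and 53.1 CPM to 88.0, 95.7 and 84.1 CPM, and the groups did not overlap. Hemicentin-1, an extracellular matrix protein, went from 13.4 to 16.9 CPM to 43.7, 38.5 and 81.9 CPM (log2 1.86, adjusted p = 6.8e-13), after 40.6 to 48.2 CPM at 3 hpa, and it also rose at the foot-regenerating wound (log2 1.46, adjusted p = 9.2e-10).

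Other risers were calretinin, a calcium-binding protein (114, 120, 127 and 118 CPM, then 192, 219 and 199 CPM), the channel polycystin-2 (8.07 to 11.6 CPM, then 20.7 to 23.5 CPM) and metabotropic glutamate receptor 1 (1.96 to 2.33 CPM, then 3.93 to 6.53 CPM). In each of these the 12 hpa libraries lay above those at 0 hpa. The fallers included acid-sensing ion channel 3 (4.05 to 9.51 CPM, then 2.71 to 3.49 CPM), trefoil factor 3 (24.1 to 38.1 CPM, then 13.05 to 23.3 CPM) and a mucin-like protein (11.9 to 19.9 CPM, then 4.75 to 12.4 CPM), where the groups overlapped only for the mucin-like protein. In the foot list, the matrix cross-linking enzyme lysyl oxidase homolog 2B rose from 12.2 to 17.5 CPM to 26.1 to 34.9 CPM.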
